A study of Mus musculus with 8 samples.

Results

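Pulmonary neuroendocrine cells are followed here through 8 genes of their secretory apparatus, Calca, Chga, Chgb, Scg2, Scg5, Syp, Uchl1 and Resp18. They are listed by name as genes typical of these cells, and were chosen with earlier results of these data known. No measured value sets membership, and the feature with the highest mean over all 8 arrays stands for each gene. All 8 were among the 17229 genes tested. The RNA came from whole lungs of C57Bl/6J pups that spent postnatal days 0 to 3 in 85% oxygen. The 4 arrays titled TG_hyperoxia carry the genotype label Fgf10 +/- and the 4 titled WT_hyperoxia the label wild-type. Both groups received oxygen, and no lungs from room air were analysed here. Each array was hybridised with 1 dye (Cy3) and is an independent sample per the series' design text. No label ties the samples to separate litters, so the p-values reflect only how these samples vary, which may be technical. What TG stands for and which part of Fgf10 is altered are not given in the sources used here.

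Pulmonary neuroendocrine cells are rare epithelial cells of the airway wall that sit singly or in small clusters called neuroepithelial bodies, often at branch points and touched by nerve endings. They sense oxygen and other stimuli and release peptides and amines from dense-core granules. Granins pack these granules, convertases cut the prohormones inside them, and CGRP, the calcitonin gene-related peptide encoded by Calca, is among the best known products in mouse lung. Neurons use much of the same machinery. Fgf10, made by the lung mesenchyme, acts on the epithelium through the receptor Fgfr2b.

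The targeted gene did not separate the groups. Fgf10 read 7.81, 7.99, 8.10 and 8.28 on the arrays labelled Fgf10+/- and 7.53, 8.16, 7.91 and 7.64 on wild-type arrays (log2 intensity, its brightest feature). The difference, here and below labelled Fgf10+/- minus wild-type, was 0.23 on the log2 scale (SE 0.16, limma adjusted p = 0.653). Each direction given here rests on the labels alone.

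The promoters of the 8 genes were compared first, because several granin genes are textbook examples of genes with a cAMP response element (CRE) near the start site. RefSeq (GRCm38.p6) gave 1 promoter for each of the 8, covering 250 bases before to 50 bases after the start. The full element TGACGTCA, which reads the same on both strands, occurred in 2 of the 8, Chgb and Scg2, and in 1.79% of 32851 mouse promoters. Its first 5 letters alone, TGACG, searched on both strands and contained in every full element, occurred in 5 of the 8, namely Calca, Chga, Chgb, Scg2 and Scg5, and in 20.8% of all promoters. The E-box CAGCTG, a core bound by basic helix-loop-helix factors, occurred in Calca, Chga, Chgb and Resp18, 4 of the 8, and in 16.3% of all. The windows of 40 bases show how close the 5 matches are to each other, with the match in capitals and each strand written 5′ to 3′ along the gene.
Chgb, chr2:132781554-132781593, plus strand: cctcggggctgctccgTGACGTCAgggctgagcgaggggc
Scg2, chr1:79440071-79440110, minus strand: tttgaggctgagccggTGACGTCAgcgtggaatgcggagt
Chga, chr12:102554881-102554920, plus strand: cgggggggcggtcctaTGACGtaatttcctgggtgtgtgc
Calca, chr7:114636399-114636438, minus strand: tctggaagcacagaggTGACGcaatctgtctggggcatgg
Scg5, chr2:113829243-113829282, minus strand: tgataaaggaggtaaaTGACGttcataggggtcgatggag
The matches begin 72, 68, 44 and 65 bases before the start site in Chgb, Scg2, Chga and Calca, and 175 bases before it in Scg5. A match describes letters in a window and does not show a bound site.

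None of the 8 genes passed the test between the groups. By limma, 0 of 8 had a p below 0.05 after Benjamini-Hochberg adjustment, the threshold for a call, while 0.795% of the 17229 tested genes were called. At an unadjusted p below 0.05 the count was again 0 of 8, against 11.2% of all tested genes. In none of the 8 did the arrays of the groups lie fully apart, which they did in 6.64% of all tested genes. The differences were positive in Chga, Chgb, Scg5 and Resp18 and negative in Calca, Scg2, Syp and Uchl1, 4 each way. Their median was 0.04 on the log2 scale, and that of all tested genes was 0.01. Adjusted p-values ran between 0.521 and 0.979. In whole lung, fewer cells of a type and less RNA per cell cannot be told apart.

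**Figure D1:**
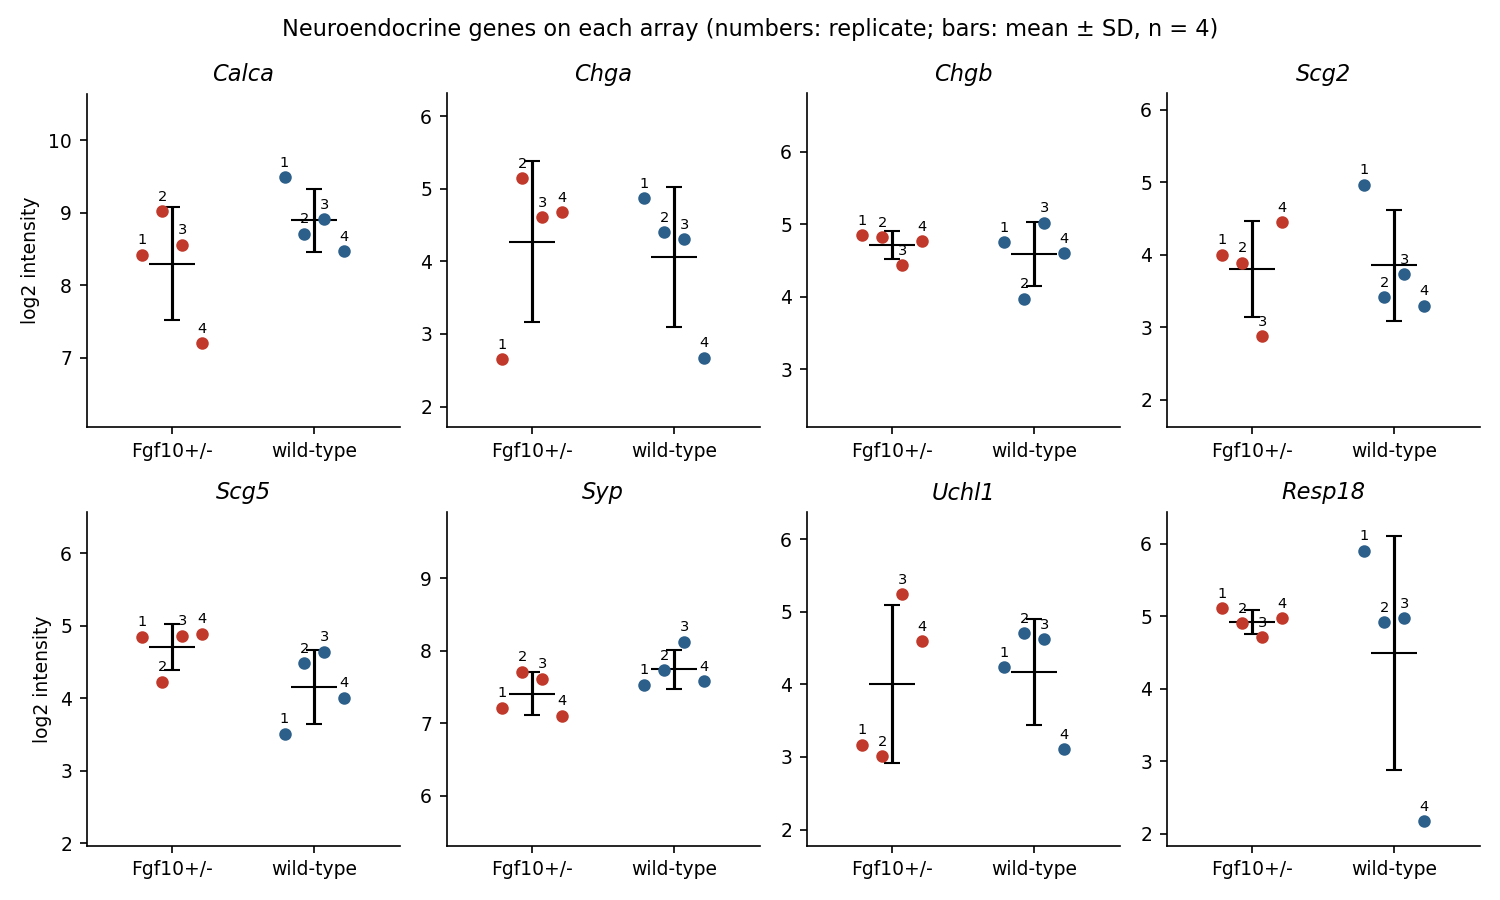
Log2 intensity of the brightest feature of each of the 8 genes on every array, labelled Fgf10+/- in red and wild-type in blue, with black bars for mean ± SD (n = 4 each). All panels span the same number of log2 units. The groups overlap in every panel, and single arrays stand low in Chga (Fgf10+/- array 1 and wild-type array 4) and Resp18 (wild-type array 4).

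Calca had the largest difference of the 8, and it did not pass. It encodes the precursors of calcitonin and CGRP, and CGRP is a dilator of vessels. Its brightest feature read 8.42, 9.02, 8.56 and 7.20 on arrays 1 to 4 labelled Fgf10+/-, and 9.49, 8.71, 8.91 and 8.47 on wild-type arrays 1 to 4. Array 4 labelled Fgf10+/- was the lowest of the 8 and wild-type array 1 the highest, and the other 6 lay in 1 overlapping range. The means were 8.30 ± 0.77 in lungs labelled Fgf10+/- and 8.90 ± 0.44 in wild-type lungs (SD, n = 4 each). The difference of -0.60 had a 95% interval of -1.27 to 0.08 (limma adjusted p = 0.521), which spans 2.41-fold lower to 1.06-fold higher. Without array 4 labelled Fgf10+/- it was -0.23, and without wild-type array 1 it was -0.40.

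A second Calca feature, annotated with another transcript of the gene, gave the same sign with a smaller difference. It read 5.03, 5.81, 4.72 and 4.89 on arrays labelled Fgf10+/- and 5.62, 5.29, 5.12 and 5.59 on wild-type arrays. Its difference was -0.29 with a two-sided exact permutation p = 0.286, where the brightest feature had -0.60 with p = 0.257. The smallest p that the 70 assignments of 4 against 4 arrays allow is 0.0286. Over the 8 arrays these Calca features had a Pearson r of 0.58 (exact permutation p = 0.117) and a Spearman rho of 0.69 (exact permutation p = 0.0694). Without the 2 arrays farthest from the median r was 0.45, and centred within groups it was 0.49.

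The 3 granins among the 8 genes, which condense into the cores of dense-core granules, showed no common direction. Chga, the chromogranin A gene, read 2.65, 5.15, 4.61 and 4.68 on arrays labelled Fgf10+/- and 4.87, 4.40, 4.31 and 2.67 on wild-type arrays. One array of each group was below 2.76, the mean level a feature needed to be tested, and the other 6 lay at 4.31 to 5.15. The Chga means were 4.27 ± 1.11 in lungs labelled Fgf10+/- and 4.06 ± 0.96 in wild-type lungs (SD, n = 4 each). The difference was 0.21 with a 95% interval of -0.99 to 1.41 (limma adjusted p = 0.927). Leaving out wild-type array 4 turned it to -0.26 and leaving out array 2 labelled Fgf10+/- to -0.083, while it was 0.75 without array 1 labelled Fgf10+/-.

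Scg2 encodes secretogranin II, the precursor of the peptide secretoneurin. It read 4.00, 3.89, 2.88 and 4.45 on arrays labelled Fgf10+/- and 4.97, 3.42, 3.73 and 3.30 on wild-type arrays. The highest value was that of wild-type array 1 and the lowest that of array 3 labelled Fgf10+/-, and the groups overlapped. The difference was -0.05 with a 95% interval of -1.0 to 0.90 (limma adjusted p = 0.979). It turned to 0.26 without array 3 labelled Fgf10+/- and to 0.32 without wild-type array 1.

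Chgb, the chromogranin B gene, was measured by 10 features, which show how far single readings scatter within an array. Its brightest feature read 4.85, 4.82, 4.43 and 4.76 on arrays labelled Fgf10+/- and 4.75, 3.97, 5.02 and 4.60 on wild-type arrays. The difference was 0.13 with a 95% interval of -0.50 to 0.76 (limma adjusted p = 0.915), and it turned to -0.073 without wild-type array 2. Averaged over the 10 features, the arrays labelled Fgf10+/- read 4.41, 4.24, 4.06 and 4.27 and the wild-type arrays 4.58, 3.88, 4.53 and 3.71. These averages were 4.24 ± 0.14 in lungs labelled Fgf10+/- and 4.17 ± 0.45 in wild-type lungs (SD, n = 4 each), a difference of 0.07 with a two-sided exact permutation p = 0.743. Wild-type arrays lay on both sides of all 4 arrays labelled Fgf10+/-.

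Within 1 array the Chgb features scattered widely. On array 1 labelled Fgf10+/- they ran between 2.91 and 5.41, and on wild-type array 2 between 2.05 and 5.25. The SD of the 10 features within an array was 0.39 to 0.89 with a median of 0.69, and the SD of the 8 array averages, narrowed by averaging 10 features, was 0.31. The features kept no common order: their values correlated positively in 14 of the 28 pairs of arrays, with r between -0.48 and 0.65 over the 10 features. By feature, the difference between groups was positive in 6 and negative in 4, and ranged between -0.55 and 0.74. All 10 are annotated with 1 transcript, and whether they are repeated spots of 1 probe or different probes could not be told, since no probe sequences were used.

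**Figure D2:**
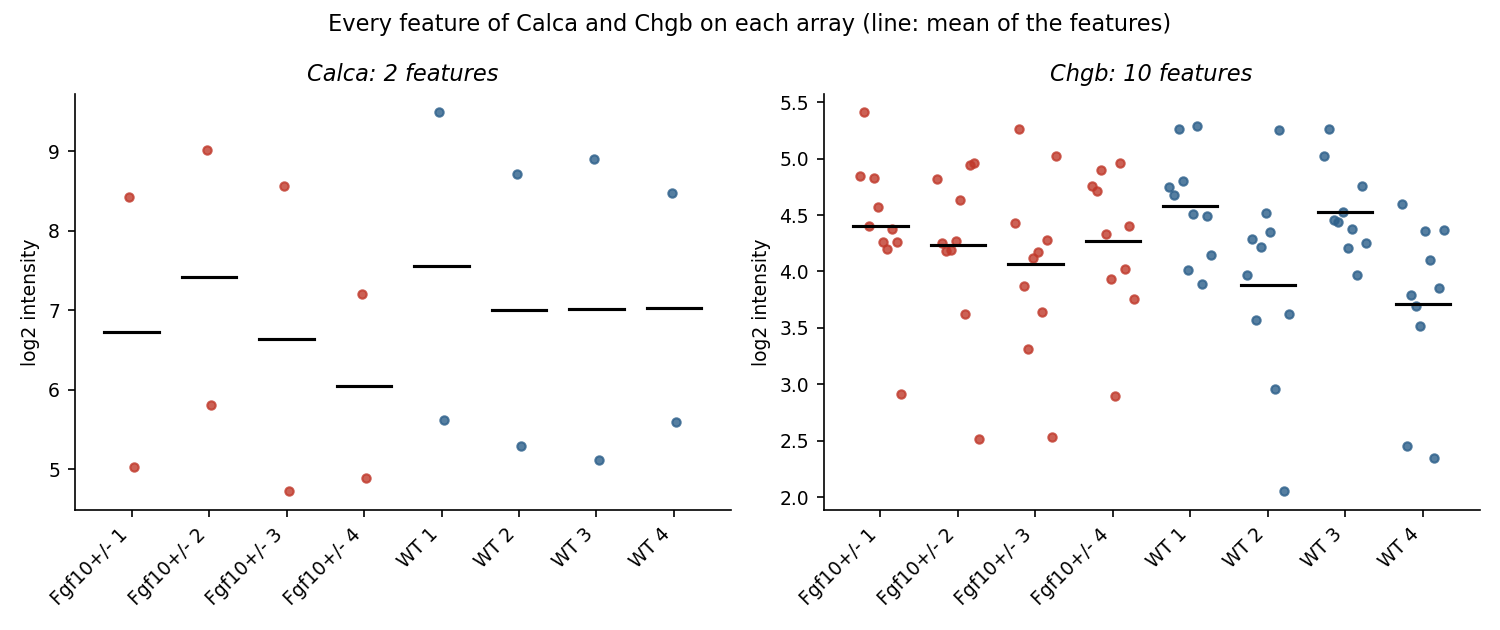
Log2 intensity of both features of Calca (left) and all 10 features of Chgb (right) on each array, labelled Fgf10+/- in red and wild-type (WT) in blue, with a black line at the mean of the features. In both Calca features the groups overlap, and single Chgb features scatter between 2.05 and 5.41 and cover the whole range of the array averages.

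Scg5 and Resp18 encode proteins that serve the granule. Scg5 is a chaperone of the prohormone convertase encoded by Pcsk2. It read 4.85, 4.23, 4.86 and 4.89 on arrays labelled Fgf10+/- and 3.51, 4.48, 4.64 and 4.01 on wild-type arrays. The 3 highest values were from arrays labelled Fgf10+/-, and their array 2 lay below wild-type arrays 2 and 3. The means were 4.71 ± 0.32 in lungs labelled Fgf10+/- and 4.16 ± 0.51 in wild-type lungs (SD, n = 4 each). The difference of 0.55 was the largest positive one of the 8, with a 95% interval of -0.15 to 1.25 (limma adjusted p = 0.575). Without wild-type array 1 it was 0.34.

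Resp18, the regulated endocrine-specific protein gene, encodes a protein of the secretory granule. It read 5.11, 4.90, 4.71 and 4.97 on arrays labelled Fgf10+/- and 5.90, 4.92, 4.97 and 2.17 on wild-type arrays. The arrays labelled Fgf10+/- lay close together, with an SD of 0.17, and wild-type arrays 1 and 4 lay above and below all of them, with a group SD of 1.61. The difference was 0.43 with a 95% interval of -0.85 to 1.71 (limma adjusted p = 0.848), and it turned to -0.34 without wild-type array 4.

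Syp and Uchl1 are shared most widely with neurons. Syp, synaptophysin, is a membrane protein of small secretory vesicles. It read 7.21, 7.71, 7.61 and 7.10 on arrays labelled Fgf10+/- and 7.53, 7.73, 8.12 and 7.58 on wild-type arrays. All 4 wild-type values lay above arrays 1 and 4 labelled Fgf10+/- and overlapped with arrays 2 and 3. The difference of -0.33 had a 95% interval of -0.73 to 0.06 (limma adjusted p = 0.545), the narrowest of the 8, spanning 1.66-fold lower to 1.05-fold higher. Syp lies on the X chromosome, and the X-inactivation transcript Xist was at 1.93 to 2.63 on arrays 2 and 3 labelled Fgf10+/- and wild-type array 3, and at 6.29 or above on the other 5. With Xist as a covariate, the Syp difference was -0.45 (limma adjusted p = 0.286).

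Uchl1 encodes a ubiquitin hydrolase abundant in neurons and neuroendocrine cells. It read 3.17, 3.01, 5.24 and 4.60 on arrays labelled Fgf10+/- and 4.24, 4.71, 4.62 and 3.11 on wild-type arrays. Low values occurred in both groups, on arrays 1 and 2 labelled Fgf10+/- and on wild-type array 4. The difference was -0.17 with a 95% interval of -1.28 to 0.95 (limma adjusted p = 0.938). It turned to 0.11 and 0.165 without arrays 1 and 2 labelled Fgf10+/-, and to 0.012 without wild-type array 2.

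**Figure D3:**
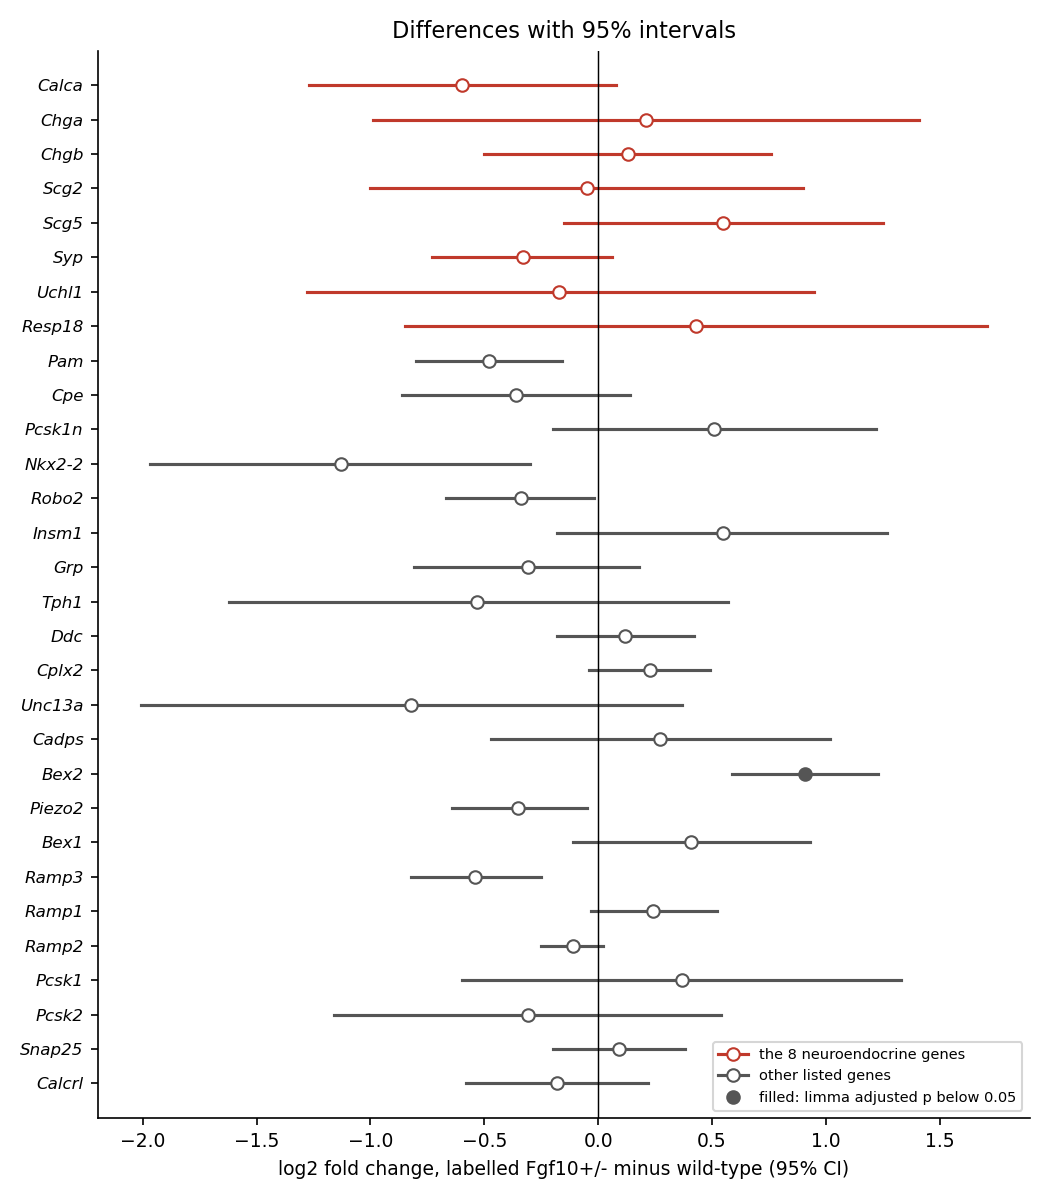
Log2 fold changes, labelled Fgf10+/- minus wild-type, with 95% intervals from the limma fit for the 8 neuroendocrine genes (red) and other listed genes of the same cells and their receptors (grey). All 8 red intervals include 0, and Bex2 is the 1 filled point, with an adjusted p of 0.0134.

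The spread between arrays differed widely among the 8 genes. Set against the SD that the limma fit expects at a gene's intensity, Calca varied most. Its SD between arrays of a group was 0.63 against an expected 0.19, a ratio of 3.26 that 0.859% of tested genes reached. The ratio was 2.48 for Resp18, 2.04 for Chga and 1.80 for Uchl1, which 2.05%, 4.16% and 6.39% of tested genes reached. Scg2 at 1.33 and Syp at 1.17 were nearer to the expected spread, and Scg5 at 0.88 and Chgb at 0.73 lay below it. The median SD was 0.67 for the 8 genes and 0.26 for all tested genes.

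Genes with 10 features show how much single features differ within an array at each level. There were 278 such genes. Their median SD within an array was 0.55 for the 81 genes with a mean of 2 to 4 and 0.50 for the 38 genes at 4 to 6. It was 0.25 for the 55 genes at 6 to 8 and 0.21 for the 60 genes at 8 to 10. The SD between arrays of a group was 0.34 for Chgb, 0.43 for Scg5, 0.72 for Scg2, 0.93 for Uchl1, 1.04 for Chga and 1.15 for Resp18. It was 0.63 for Calca and 0.28 for Syp. The scatter of features within an array may hold differences between probes, so it is given beside the spread between arrays and not as a test of it.

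**Figure D4:**
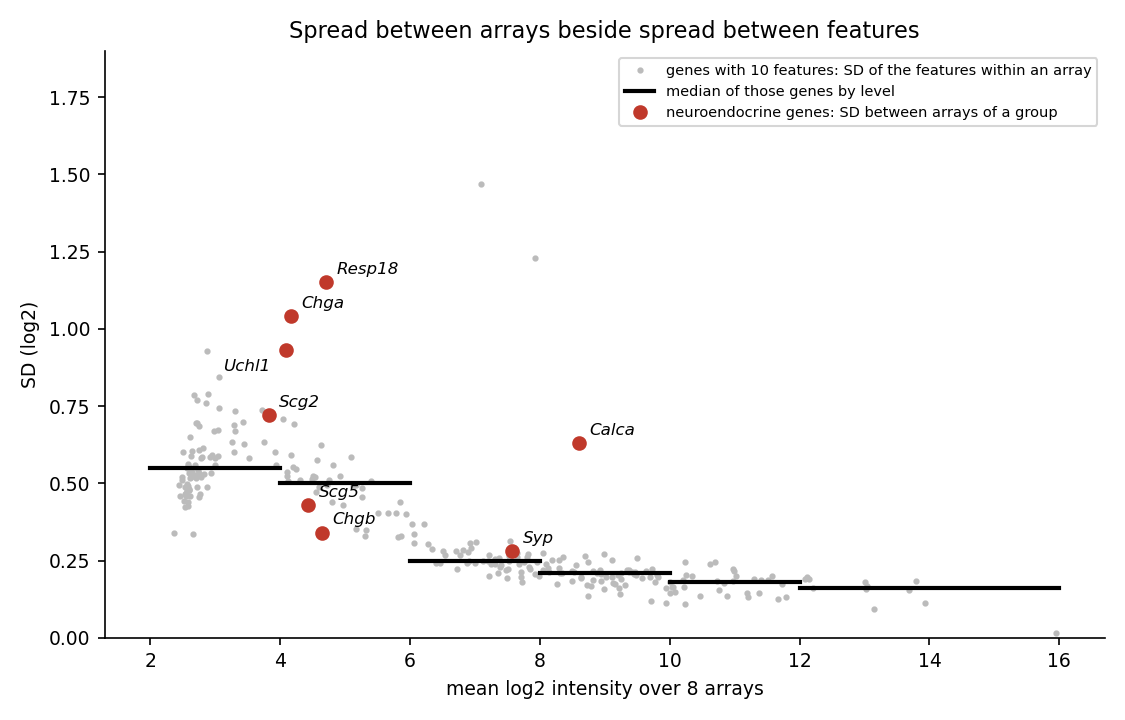
SD of log2 intensity against mean level. Grey points are 278 genes with 10 features (median over arrays of the SD between features within an array), black lines their medians by level, and red points the SD between arrays of a group for the 8 neuroendocrine genes. Grey medians fall from 0.55 at the lowest level to 0.16 at the highest, and the red points lie between 0.28 (Syp) and 1.15 (Resp18).

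Whether arrays high in one of the 8 genes were also high in another was tested for all 28 pairs over the 8 arrays. Pearson correlations were positive in 16 pairs and negative in 12, with a median of 0.07. The highest was 0.64 for Calca with Syp (exact permutation p = 0.0915, Spearman rho 0.57 with exact permutation p = 0.151, r = 0.75 without the 2 arrays farthest from the Calca median). The lowest was -0.67 for Calca with Scg5 (exact permutation p = 0.0747, Spearman rho -0.69 with exact permutation p = 0.0694, r = -0.23 without the 2 farthest arrays). None of the 28 passed adjustment, where the smallest adjusted p was 0.967 for r and 0.203 for rho. At an unadjusted exact permutation p below 0.05 there were 0 pairs for r and 1 for rho, Scg2 with Resp18 at a rho of 0.88 (p = 0.00724). Centred within groups, 18 pairs were positive, with a median of 0.13 and a smallest adjusted p of 0.725.

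Averaging all features of a gene, which changes Calca and Chgb, moved some of these correlations. Chgb with Resp18 had an r of 0.78 (exact permutation p = 0.0026, adjusted p = 0.0729 over the 28 pairs), against 0.14 with the brightest feature, and a rho of 0.86 (adjusted exact permutation p = 0.100). Without the 2 arrays farthest from the Chgb median r was 0.76, and centred within groups it was 0.78. Chgb with Scg2 had an r of 0.70 (exact permutation p = 0.0511, adjusted p = 0.477), against 0.47 with the brightest feature. Calca with Scg5 reached a rho of -0.95, the 1 pair whose rho passed (adjusted exact permutation p = 0.0319), with an r of -0.81 that did not (adjusted p = 0.202). On these averages, arrays higher in Calca were lower in Scg5, with an r of -0.74 when centred within groups.

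**Figure D5:**
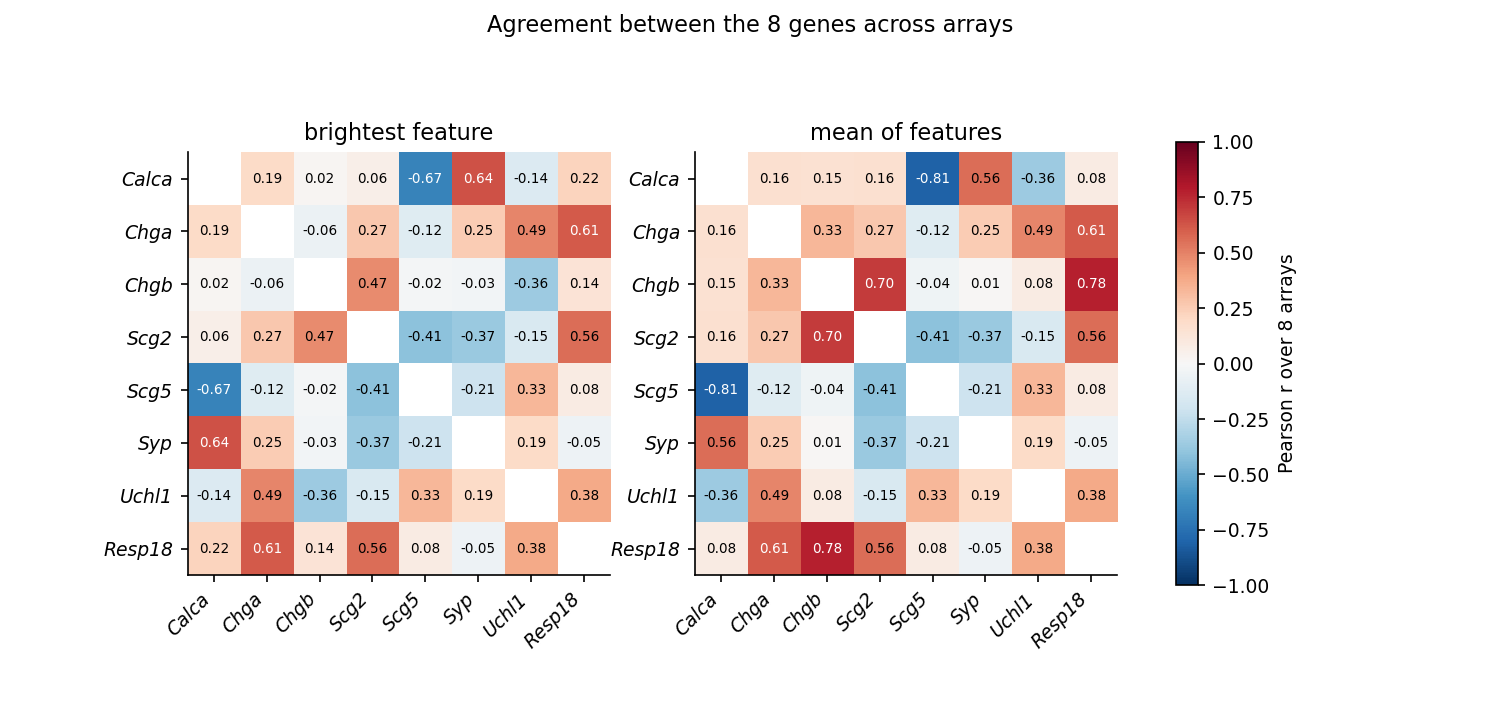
Pearson r over the 8 arrays for every pair of the 8 genes, with the brightest feature of each gene (left) and with the mean of its features (right), red for positive and blue for negative. Signs are mixed on both sides, and Chgb with Resp18 is at 0.14 on the left and 0.78 on the right.

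The genes outside the lists whose log2 values were most like those of Chga over the 8 arrays were B3galt4, Acbd7, Mterf1a, Lrrc6 and Ndufb2, with Pearson r between 0.932 and 0.957 among 15821 genes compared. Chga varied mainly through its low values on array 1 labelled Fgf10+/- and wild-type array 4, so genes chosen for a high correlation with it are low there by selection. Ndufb2, a subunit of the mitochondrial respiratory chain, read 12.44 and 12.27 on these 2 arrays and 12.61 to 12.70 on the other 6. None was called, with differences of 0.01 to 0.40 on the log2 scale (limma adjusted p between 0.817 and 0.996). Those of B3galt4 and Mterf1a, both 0.01, turned negative without wild-type array 4, at -0.18 and -0.24, and so did those of Lrrc6 and Ndufb2, at -0.042 and -0.060.

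Other genes of neuroendocrine cells and their signals were described by 6 lists holding 60 genes, of which 50 were tested. By limma 1 was called higher, Bex2, and none was called lower, against 0.226% higher and 0.569% lower among all tested genes. At an unadjusted p below 0.05 there were 6 of the 50, near the 11.2% of all tested genes. The median difference of the 50 was 0.05 on the log2 scale. The groups lay apart in 5 of the 50, against 6.64% of all tested genes. This count and the count at an unadjusted p below 0.05 both include Bex2 and Nkx2-2. Only wild-type values carried Nkx2-2 past the filter, so neither count is read as a result about the lists. The call of Bex2 was already known when the lists were chosen. Of the 50 tested genes named with values, the 8 included, 39 had a difference that moved by over 1.5 times when 1 of the arrays was left out. A difference near 0, such as 0.006 for B3galt4, exceeds that ratio with a small shift. The share over all tested genes is not given here.

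Prohormone processing and further genes of the granin family, such as Scg3 and Vgf, formed 1 list. It had 9 tested genes, none of them called, with a median of -0.08. Pam, the enzyme that amidates peptides such as CGRP, read 7.28, 7.14, 7.00 and 7.05 on arrays labelled Fgf10+/- and 7.42, 7.62, 7.59 and 7.75 on wild-type arrays. The groups were apart, with a difference of -0.48 (SE 0.15) that did not pass (limma adjusted p = 0.195). The carboxypeptidase Cpe had -0.36 (SE 0.23), or -0.08 without wild-type array 4, and the convertase inhibitor Pcsk1n 0.51 (SE 0.33). The convertases Pcsk1 and Pcsk2 had 0.37 (SE 0.45) and -0.31 (SE 0.39). None of these is restricted to neuroendocrine cells.

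Among 10 tested genes of neuroendocrine fate and its control, including Notch ligands and Robo receptors, none was called and the median was 0.09. Nkx2-2, a transcription factor of endocrine and neural lineages, read 2.17, 2.14, 3.04 and 3.12 on arrays labelled Fgf10+/- and 3.70, 3.98, 4.16 and 3.17 on wild-type arrays. The groups were apart by a narrow margin and 2 values lay below the filter level, with a difference of -1.13 (SE 0.39, limma adjusted p = 0.261). The Nkx2-2 mean was 2.62 on arrays labelled Fgf10+/-, below the filter level of 2.76, and 3.75 on wild-type arrays. Only its wild-type values carried it past the filter, so the gap between its groups carries little weight. Insm1, a zinc finger factor of endocrine cells, had 0.55 (SE 0.34), with values of 3.74 to 4.30 on arrays labelled Fgf10+/- and 2.93 to 4.11 on wild-type arrays. Robo2, a receptor through which neuroendocrine cells cluster in mouse lung, had -0.34 (SE 0.15, limma adjusted p = 0.415).

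Peptides and amines other than Calca gave 10 tested genes with none called and a median of 0.11. Grp, gastrin-releasing peptide, read 6.59, 7.28, 7.65 and 7.82 on arrays labelled Fgf10+/- and 7.88, 7.45, 7.67 and 7.59 on wild-type arrays. Array 1 labelled Fgf10+/- was the lowest, and the difference of -0.31 (SE 0.23, limma adjusted p = 0.668) was -0.07 without it. Tph1, the first enzyme of serotonin synthesis, had -0.53 (SE 0.51), or -0.25 without array 2 and -0.995 without array 3 labelled Fgf10+/-. Ddc, the decarboxylase of the same pathway, had 0.12 (SE 0.14), or 0.039 without array 1 labelled Fgf10+/-. Calcb, the second CGRP gene, was below the filter on average, at 1.93 to 3.05 on arrays labelled Fgf10+/- and 2.28 to 3.71 on wild-type arrays, and was not tested.

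In the vesicle release machinery none of 9 tested genes was called, with a median of 0.06. Snap25, part of the fusion complex, had 0.09 (SE 0.13), with a 95% interval of -0.20 to 0.38. Cplx2, a complexin, had 0.23 (SE 0.12) and the release factor Cadps 0.27 (SE 0.35). Unc13a had -0.82 (SE 0.55), with 1 high value, 5.25 on wild-type array 2, and -0.19 without that array. The Unc13a mean was 2.53 on arrays labelled Fgf10+/-, below the filter level, so only its wild-type values carried it past the filter.

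Bex2 was the 1 called gene. It is a small brain-expressed X-linked gene found in neuroendocrine cells and in other cell types. It read 12.43, 12.26, 12.31 and 12.42 on arrays labelled Fgf10+/- and 10.89, 11.73, 11.69 and 11.47 on wild-type arrays, with no overlap. The rise was 0.91 with a 95% interval of 0.59 to 1.23 (limma adjusted p = 0.0134). Bex2 passed in each of the 8 fits that omit 1 array, in some of them narrowly. The limma adjusted p rounded to 0.05 without array 4 labelled Fgf10+/- and was 0.0458 without array 1 of that group. The lowest was 0.00119, without wild-type array 1. The call held with Xist as a covariate (0.90, limma adjusted p = 0.0296) and was lost without the variance trend (limma adjusted p = 0.195). Its neighbour in the family, Bex1, had 0.41 (SE 0.24, limma adjusted p = 0.575). Wild-type array 1 was the lowest array for both genes, and the Bex1 difference was 0.11 without it. The stretch channel gene Piezo2 had -0.35 (SE 0.14, limma adjusted p = 0.354), with the groups apart. With the mean of its features the Piezo2 difference was -0.26 (limma adjusted p = 0.698).

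Receptors for the peptides were measured in 5 tested genes, none called, with a median of -0.11. CGRP acts on the receptor Calcrl paired with the accessory protein Ramp1, while Ramp2 and Ramp3 turn Calcrl into receptors for adrenomedullin. Calcrl had -0.18 (SE 0.19), or -0.006 without wild-type array 3, Ramp1 0.24 (SE 0.13) and Ramp2 -0.11 (SE 0.06). Ramp3 read 8.32, 8.31, 8.24 and 7.94 on arrays labelled Fgf10+/- and 8.94, 8.66, 8.82 and 8.55 on wild-type arrays. Its groups were apart, and its difference of -0.54 (SE 0.13) missed the threshold with limma adjusted p = 0.0926. It was called with the mean of its features, at -0.64 (limma adjusted p = 0.0457), and under no other alternative. Without the variance trend the limma adjusted p was 0.237.

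Markers of other cells that could carry the same transcripts were measured beside them. None of 11 neuron markers was called, and 1 had an unadjusted p below 0.05, where 11.2% of all tested genes had one. The sign was negative in 10 of the 11, with a median of -0.21, and in 48.7% of all tested genes. The markers may vary together, and their shared sign was not tested. Stmn2, a neuronal stathmin, had -0.35 (SE 0.13, limma adjusted p = 0.286). Elavl3 had -0.91 (SE 0.51), or -0.32 without wild-type array 4, and Phox2a -0.34 (SE 0.39), or -0.084 without wild-type array 2. Phox2a lay near the filter level of 2.76, at 2.61 to 3.04 on arrays labelled Fgf10+/- and 2.51 to 3.90 on wild-type arrays. Elavl3 was dim too, at 2.93 to 3.85 on arrays labelled Fgf10+/- and 3.50 to 6.01 on wild-type arrays. The summed intensity of the neuron list, as log2, was 9.67 to 10.05 on arrays labelled Fgf10+/- and 10.04 to 10.40 on wild-type arrays. Stmn2, at 8.88 to 9.35 on arrays labelled Fgf10+/- and 9.27 to 9.65 on wild-type arrays, made up a large part of this sum. The part of nerve fibres and ganglia in the values of Syp, Uchl1 and Calca was not tested.

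None of 3 Schwann cell markers was called (median 0.05), with Sox10 at -0.47 (SE 0.39), Erbb3 at 0.36 (SE 0.53) and S100b at 0.05 (SE 0.19). Thyroid C cells also make Calca, and the 2 tested thyroid markers lay near the filter level. Tg, thyroglobulin, read 2.25 to 3.37 on arrays labelled Fgf10+/- and 2.42 to 3.52 on wild-type arrays, and Tshr read 2.35 to 3.37 on arrays labelled Fgf10+/- and 2.20 to 4.42 on wild-type arrays. Of 5 heart muscle markers none was called, with Tnnt2 at -0.26 (SE 0.13), or -0.163 without wild-type array 4, and Actc1 at 0.24 (SE 0.16), or 0.044 without wild-type array 1. Nppa, the atrial natriuretic peptide gene, read 11.25 on wild-type array 4 and 4.55 to 6.25 on the other 7. Its difference was -1.12, and 0.51 without that array. Wild-type array 4 also had the lowest value of Resp18, 2.17, and the lowest wild-type value of Chga, 2.67. The part of other tissue in that array's values was not tested.

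The labelled tissue carried its markers. Sftpc and Scgb1a1, secreted products of alveolar type II and club cells, were at 15.94 to 15.99 on all 8 arrays, at the top of the scale, where a difference cannot be read. They dominate the list's sum: the summed intensity of 9 lung and epithelium markers, as log2, was 17.35 to 17.37 on arrays labelled Fgf10+/- and 17.31 to 17.39 on wild-type arrays. Nkx2-1, the lung epithelial transcription factor that neuroendocrine cells also express, had a difference of 0.41 (SE 0.09, limma adjusted p = 0.0691), with the groups apart. Of the 9 markers 7 had a positive sign, a count that includes Sftpc and Scgb1a1 at the top of the scale. Among all tested genes 48.7% had a negative sign. An unadjusted p below 0.05 occurred in 2 of the 9 markers by limma, against 11.2% of all tested genes, and none was called. Cdh1, the epithelial cadherin, had 0.33 (SE 0.11), and Pecam1, a marker of endothelium, -0.29 (SE 0.15), neither called.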

How the data were processed

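The deposited table holds log2 intensities for 62976 features on each of 8 Agilent arrays. Per the submitters' processing notes the authors used limma, whose version and settings, like the background correction, are not given in the sources used here. The 8 columns share nearly identical means (5.06) and quantiles, as after quantile normalization, and were used as deposited. The table holds no detection call, so whether a dim value lay above background is unknown. The labels name no slide or scan, which left no batch to test, and the number of arrays limits the precision. No coordinates of features were used, and symbols (1 for each of 31465 features, none for 31511) were updated by accession through RefSeq's GRCm38.p6 table, which matched 29050.

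Features with a missing value (189) or a mean below the 30th percentile (2.76) were left out. The feature with the highest mean stood for each gene. The 17229 genes were tested with limma 3.58.1 in R 4.3.3 (lmFit, eBayes with a variance trend, two-sided, Benjamini-Hochberg over all genes), tested on simulated data beforehand. Permutation tests were exact and two-sided (Python 3.11.15).

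Genes named were all 8 members, from each other list every called gene and the 3 with the smallest p, a panel (Grp, Insm1, Bex2, Calcb, Calcrl, Ramp1, Pcsk1, Pcsk2, Snap25), the 5 genes most correlated with Chga, and Fgf10. Members and lists were chosen with earlier results of these data known. Some listed genes were not analysed here. Alternatives covered the filter, the combination of features, normalization, the variance trend, array weights, Xist, the replicate number and each array left out.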

Additional observations from a re-analysis of the deposited data

Results flagged for a closer look

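A sample was looked at again where it stood far from the other 3 of its group by Dixon's criterion at the 95% level. Of 100 groups checked (50 named genes in both groups) 9 were picked out, where chance picks about 1 in 20. Array 2 labelled Fgf10+/- was low in Scg5, at 4.23 against 4.85 to 4.89 on the other 3. Array 3 labelled Fgf10+/- was low in Pcsk2, at 3.07, and wild-type array 1 was low in it too, at 3.63. Wild-type array 2 was low in the Schwann cell marker S100b, at 6.47. The other 5 were on wild-type array 4. It was high in Nppa, at 11.25 against 4.63 to 4.86 on the other wild-type arrays, in Elavl3, at 6.01, and in Piezo2, at 8.85. It was low in Lrrc6, at 3.46, and in Ndufb2, at 12.27, and both genes were named for their likeness to Chga, which was also low there.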

How the results depend on the processing

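None of the 8 genes was called under any of the 17 alternatives run. The pairs were run only centred within groups, with the mean of features and with each array left out. For the pairs, leaving out arrays was chosen after seeing the data. None of the 28 pairs passed by Pearson r in any of these. Calca stayed negative (-0.84 to -0.23), as did Syp (-0.45 to -0.21), and Scg5 stayed positive (0.34 to 0.71). With 1 array left out, the differences of genes that changed sign ran from -0.26 to 0.75 for Chga, -0.073 to 0.28 for Chgb, -0.27 to 0.32 for Scg2, -0.58 to 0.165 for Uchl1 and -0.34 to 0.90 for Resp18. Likewise they ran from -0.018 to 0.75 for Erbb3, -0.047 to 0.16 for S100b, -0.35 to 0.038 for Tg, -1.70 to 0.51 for Nppa, -0.57 to 0.041 for Pcsk2, -0.18 to 0.165 for B3galt4, -0.24 to 0.22 for Mterf1a, -0.042 to 0.57 for Lrrc6 and -0.060 to 0.092 for Ndufb2. Signs also turned with array weights for Scg2 (0.002), B3galt4 (-0.063) and Mterf1a (-0.095), with the Xist covariate for Scg2 (0.064), B3galt4 (-0.074) and Mterf1a (-0.107), and with the mean of features for Ddc (-0.060). The cause was not tested. Over all genes 137 were called, 1 without the variance trend, 83 with the Xist covariate, and 34 to 173 with 1 array left out, the fewest without wild-type array 2 and the most without wild-type array 1. The replicate block gave 116 calls and 0 among the 8 genes. Over all genes, deviations of same-numbered arrays from their group means correlated at -0.064 to 0.067, and those of differently numbered arrays at -0.071 to 0.079. Whether same-numbered arrays shared more than a number was not tested gene by gene.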
